A study of Rattus norvegicus with 15 samples.

Results

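The 643 regions described here had short probes and a high mean ratio of immunoprecipitated to input DNA over the 15 arrays of a study of rat blood, and were chosen as candidates for methylated CpG-rich promoters. Neighbouring probes of a tiling array were joined into regions where the gap between them was at most 500 bp, and regions of 3 or more probes were kept. A region was a member when its mean probe length was under 47 nucleotides and its mean log2 ratio over all 15 arrays was 0.6 or more. The members were thus chosen by their own ratio on these arrays. They, 643 in number, made up 3.83% of all 16782 regions and 12.8% of the 5027 regions with a mean probe length under 47, called short-probe regions below, and held 5224 probes. Probe length stood in for base composition, since probes on such arrays are shortened where the sequence is rich in G and C. GC content itself was not measured, and whether a member is a promoter was not checked.

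Peripheral blood DNA of 15 male Sprague Dawley rats, all 20 weeks old, was profiled by methylated DNA immunoprecipitation (MeDIP), with 1 array per rat and 3 rats in each of 5 groups. The CaD rats were diabetic model rats given oral calcium dobesilate, which is prescribed in diabetic eye disease, at 0.25 g/kg each day, with 1.5 IU of insulin per day. The other formula rats were model rats given a second Chinese herbal formula, for which the labels state neither a dose nor insulin. The LTF rats were model rats given Luo-tong formula, a herbal preparation, at 2 g/kg per day by mouth, with 1.5 IU of insulin per day. The DR model (diabetic retinopathy model) rats received streptozotocin at 45 mg/kg, which destroys the beta cells that make insulin, and distilled water. Control rats received buffer in place of streptozotocin, and distilled water. CaD and LTF cannot be told apart from the insulin given with them when set against the DR model. Streptozotocin removes beta cells chemically, which limits these rats as a model of other forms of diabetes.

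Methylation of cytosine in CpG pairs is a stable mark of DNA, and CpG-rich promoters are mostly free of it in normal tissues. The known exceptions include promoters of germline genes, which are methylated in blood and other somatic tissues, imprinted promoters, which carry the mark on the copy from 1 parent, and promoters on the inactive X chromosome of females. MeDIP uses an antibody against methylated cytosine to pull down fragments, and the pulled-down DNA (Cy5) is hybridised against input DNA (Cy3). In whole blood, a change in the mark and a change in the share of cells that carry it cannot be told apart. Where the log2 ratio exceeds 0, more DNA was recovered relative to input than at the median probe of the array. It depends on CpG number and on probe behaviour as well as on methylation, so levels of different regions are described and not ranked as methylation.

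The arrays were scanned in 6 scans that follow the groups closely: scan 1 held DR model replicate 2, scan 2 control replicate 1, scan 3 CaD replicate 3 and all other formula arrays, scan 4 all LTF arrays, scan 5 DR model replicate 1 with control replicates 2 and 3, and scan 6 CaD replicates 1 and 2 with DR model replicate 3. The arrays also differed in the slope of their region values on the mean of all 15 arrays, from 0.871 to 1.24. DR model replicate 3 had a slope of 0.902, and the other DR model arrays 1.13 and 1.14. MeDIP signal was well above background at 94.0% to 98.5% of the members' probes on an array, against 77.6% to 90.0% of all probes. Outlier spots, which were left out, made up 0.134% to 5.70% of the members' probes. They were most frequent in the LTF arrays, at 4.42%, 5.70% and 5.57%, and in DR model replicate 1, at 4.67%. With 3 arrays a group, the number of arrays sets how precise each difference can be.

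By the rule, member levels began at 0.60. Their median was 0.74, the quartiles were 0.66 and 0.86 and the highest level was 1.81, against a median of 0.19 in the other 4384 short-probe regions. The values that chose the members are given as a description without a test. Of the 643 members, 269 lay below 0.7, 70 reached 1 and 4 reached 1.5. All 643 lay above 0 on each of the 15 arrays, and 251 lay at or above 0.6 on each. The lowest single value was 0.09 and the highest 2.68. Both channels were bright in the members, and a brighter Cy3 signal lowers the ratio. The members' Cy5 signal stood 1.50 log2 units above the array median, against 0.66 in the other short-probe regions, while their Cy3 signal stood 0.62 units above it, against 0.36. In the authors' deposited value table, made from the same arrays, the members had a median of 0.64 and all 643 had a mean above 0, against 84.6% of the other short-probe regions.

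The members were shorter in probes than the other short-probe regions. A member held a median of 9 probes, with a range of 3 to 45, and spanned a median of 1600 bp, with a range of 346 to 8705 bp. Regions of 3 to 5 probes made up 26.0% of the members (167 of 643) and 9.03% of the other short-probe regions. Regions of 9 to 11 probes made up 54.1% (348) and 68.1%. In 164 members (25.5%) every probe had the shortest length on the array, 45 nucleotides, against 9.83% of the other short-probe regions. The regions of 3 to 5 probes had a median level of 0.82 and a median within-group SD of 0.12, and those of 9 to 11 probes 0.72 and 0.10. The part of this larger spread in the share of short regions among the members was not tested.

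Most probes of a member shared the high ratio. Of the 5224 probes, 91.1% averaged above 0 and 60.4% at or above 0.6, with a range of -2.30 to 3.10. Every probe lay above 0 in 308 members (47.9%), against 3.44% of the other short-probe regions, and every probe lay at or above 0.6 in 39 members (6.07%). The rule chose members by the mean of these same probes, so this contrast is a description. In the 609 regions of longer probes at or above the ratio of 0.6, the shares were close to the members', at 44.2% and 6.73%. The gap between the highest and the lowest probe of a region had a median of 1.58 in members and 2.07 in the other short-probe regions. Along the 348 members of 9 to 11 probes, the mean log2 ratio was 0.68 at 800 bp before the centre, 0.89 at 400 bp before it, 0.71 at the centre, 0.77 at 400 bp after it and 0.64 at 800 bp after it. The 2 shoulders with a shallow dip between them were seen in each of the 5 groups and at a lower level in the other short-probe regions.

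**Figure D1:**
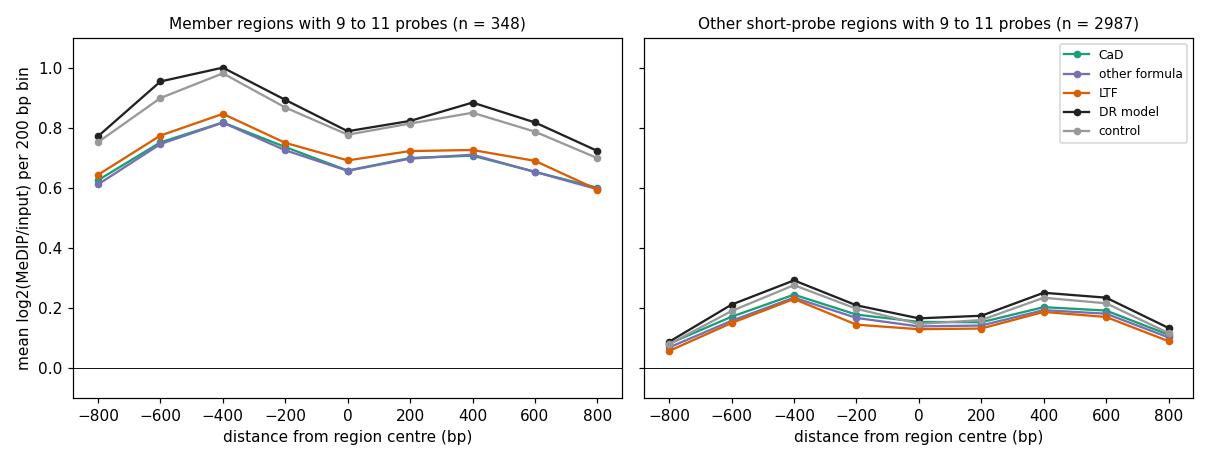
Mean log2(MeDIP/input) in 200 bp bins (y axis) against distance from the region centre in bp (x axis), for the 348 members with 9 to 11 probes (left) and the 2987 other short-probe regions of that size (right), with a line for the mean of the 3 arrays of each group. The members stay above 0.5 in every bin and group, the other regions stay below 0.3, and the lines of a panel have the same shape.

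The highest member lay on an unplaced sequence, chrUn:426940-428670 (11 probes, rn4), with a mean of 1.81 over all arrays and every probe between 0.93 and 2.54. It was followed by chr9:11072845-11073525 (5 probes) at 1.75, chr7:67016948-67017297 (3 probes) at 1.60 and chrX:90798348-90799965 (10 probes) at 1.50. On chr9:11072845-11073525 the ratio was 1.76, 1.62 and 1.54 with CaD, 1.56, 1.33 and 1.44 with the other formula, 1.82, 1.93 and 1.57 with LTF, 2.12, 2.09 and 1.79 in the DR model and 1.73, 1.86 and 2.11 in controls. All 15 arrays were high there, and the lowest 2 were other formula arrays. The X-linked region had 1.47, 1.34 and 1.35 with CaD, 1.66, 1.34 and 1.28 with the other formula, 1.49, 1.49 and 1.31 with LTF, 1.76, 1.90 and 1.33 in the DR model and 1.55, 1.56 and 1.68 in controls. Male rats have no inactive X chromosome. The other 4 of the 8 highest members, chr16:19458534-19459048, chr9:9272015-9272382, chr7:55806585-55806936 and chr18:72457924-72459596, had means of 1.40 to 1.49.

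The widest member, chr19:25617400-25626104, spanned 8705 bp with 45 probes and averaged 0.63, with 41 probes above 0. Its level was uneven: the first 9 probes, from 25617400 to 25619125, averaged 1.31, and the following sets of 9 averaged 0.63, 0.60, 0.31 and 0.33. In the first set the group means were 1.23 with CaD, 1.06 with the other formula, 1.19 with LTF, 1.56 in the DR model and 1.52 in controls. The next widest by probe number, chr13:45040704-45043306, chr2:84723793-84726210 and chr20:4094686-4097011, held 15 probes each and averaged 0.60, 0.62 and 0.75.

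**Figure D2:**
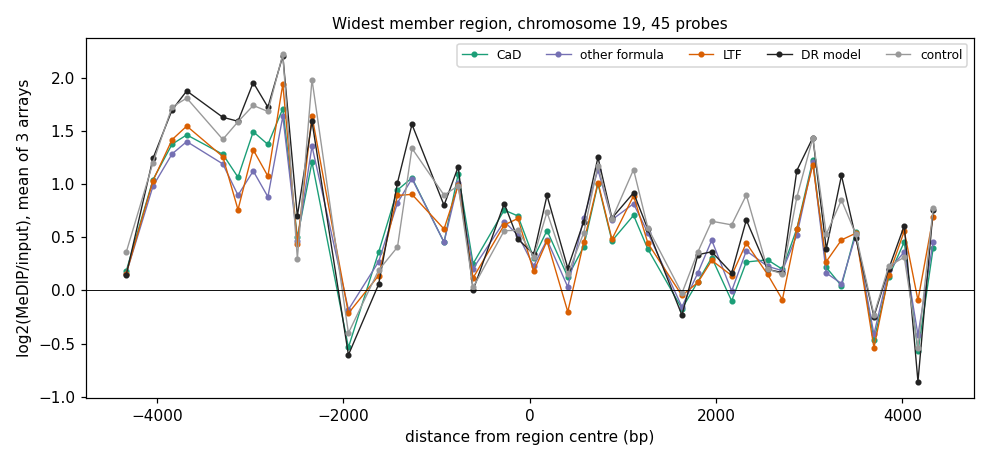
Mean log2(MeDIP/input) of the 3 arrays of each group (y axis) at each of the 45 probes of the widest member, on chromosome 19, against distance from its centre in bp (x axis). The first 9 probes average 1.31 over all arrays and the last 9 average 0.33, and the 5 lines follow a like course with local departures.

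At the ratio threshold, the members just inside were chr5:149804344-149806114, chr13:107049777-107050540 and chr9:36179051-36180671, each at 0.60, and the short-probe regions just outside, chr16:82869763-82871386, chr7:137493919-137495684 and chr5:154799263-154800256, also rounded to 0.60. A threshold of 0.5 gave 1035 members and one of 0.8 gave 230. Levels thus ran on without a gap across the threshold.

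Members were found on every chromosome with short-probe regions, at shares from 6.84% of those regions on chromosome 4 (16 of 234) to 19.8% on chromosome 17 (22 of 111). The X chromosome stood at 18.0% (16 of 89). The largest numbers lay on chromosome 1 (76), chromosome 10 (69) and chromosome 7 (61). Of 443 windows of 1 Mb with a member, 326 held only 1 and 22 held 4 or more. A run of 4 adjacent windows on chromosome 20, from 3 to 7 Mb, near the rat major histocompatibility complex, held 19 members among 97 short-probe regions (19.6%), with levels from 0.62 to 1.14. A run of 3 windows on chromosome 7, from 138 to 141 Mb, held 13 members among 34 (38.2%). A run of 2 windows on the same chromosome, from 10 to 12 Mb, held 10 among 69 (14.5%). The whole of chromosome 20 stood at 16.7% and the whole of chromosome 7 at 14.1%. The windows were picked for their counts, so these shares are descriptions. For 119 members (18.5%) another region lay within 5 kb. Of these neighbours, 58 were short-probe regions, and only those could be members by the rule. Members made up 11 of the 58, while 12.8% of all short-probe regions are members. The median of the 119 neighbours was 0.19, against -0.04 over all regions, and 40 stood below 0.

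The members' median log2 ratio was lower on most arrays of treated rats than on most arrays of untreated rats. It was 0.72, 0.68 and 0.67 on the CaD arrays, 0.74, 0.66 and 0.65 on the other formula arrays, 0.69, 0.77 and 0.69 on the LTF arrays, 0.90, 0.91 and 0.72 on the DR model arrays and 0.79, 0.80 and 0.87 on the control arrays. Group means were 0.69 ± 0.03 with CaD, 0.68 ± 0.05 with the other formula, 0.71 ± 0.05 with LTF, 0.84 ± 0.11 in the DR model and 0.82 ± 0.04 in controls (SD, n = 3 each). DR model replicate 3, at 0.72, lay among the treated arrays, and it shared scan 6 with CaD replicates 1 and 2, at 0.72 and 0.68. Neither a wrong label nor the scan was tested as a reason for its place, and this array enters every comparison with the DR model. The highest group mean at a member was the DR model's in 376 members (58.5%) and the control's in 200 (31.1%), against 26.1% and 20.6% of all regions.

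The slope of the array moved with these medians. It was 0.937, 0.871 and 0.947 with CaD, 1.02, 0.917 and 0.900 with the other formula, 0.920, 0.972 and 0.975 with LTF, 1.13, 1.14 and 0.902 in the DR model and 1.03, 1.09 and 1.24 in controls. After division by the slope, the group means of the members' median were 0.752 ± 0.0389 with CaD, 0.719 ± 0.000638 with the other formula, 0.747 ± 0.0410 with LTF, 0.796 ± 0.00256 in the DR model and 0.731 ± 0.0303 in controls (SD, n = 3 each). Without that division, the 609 regions of longer probes at or above the same ratio had a like order, with 0.73 ± 0.03 with CaD, 0.71 ± 0.07 with the other formula, 0.74 ± 0.03 with LTF, 0.89 ± 0.14 in the DR model and 0.87 ± 0.05 in controls (SD, n = 3 each).

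**Figure D3:**
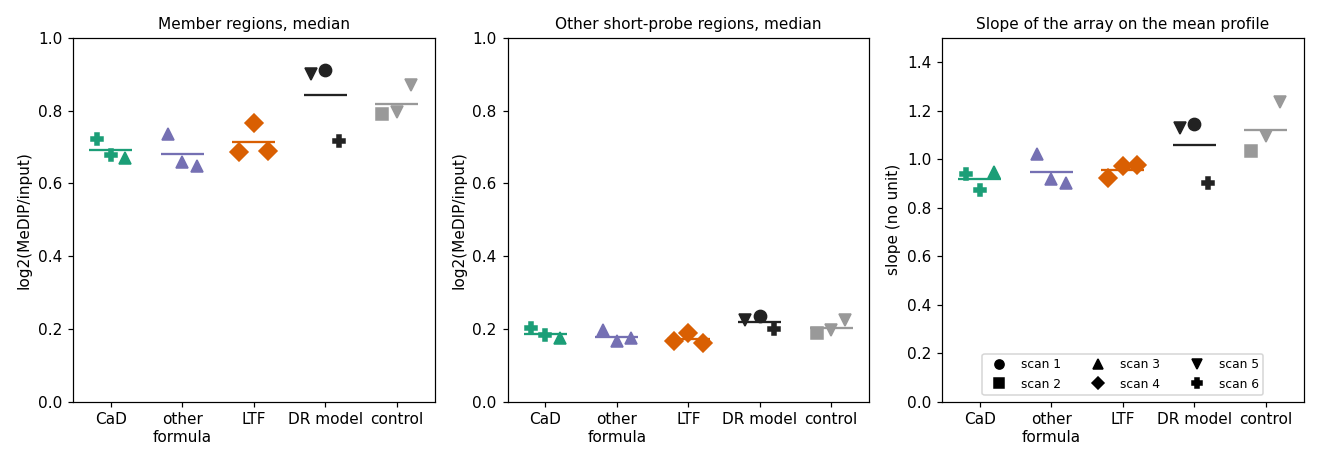
Median log2(MeDIP/input) per array over the 643 members (left) and over the other 4384 short-probe regions (middle), and the slope of each array on the mean of all 15 arrays (right). Points are arrays, shapes mark the scan and lines are group means (n = 3). DR model replicate 3, in scan 6, lies at 0.72 in the left panel beside the treated arrays, and the other DR model arrays lie at 0.90 and 0.91.

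Untreated diabetes was examined by setting the DR model against control. No member passed an adjusted p of 0.05 in limma, as in all regions (0%), and 41 members had an unadjusted p under 0.05 (6.38%, against 12.7% of all regions). That order turned round after division by the slope (15.7%, against 12.1%) and with normexp background correction (15.7%, against 11.6%). The smallest adjusted p of a member in limma was 0.103. The median difference was 0.03 over the members and 0.04 over all regions. Over the members it was 0.07 after division by the slope and 0.06 with normexp, but -0.04 with loess, where 434 members lay below 0, -0.01 with quantile normalization and -0.01 in the authors' deposited value table. The arrays of the groups did not overlap in 33 members, 23 with the DR model higher and 10 with it lower, which is 5.13% of the members against 11.5% of all regions. The members with the smallest p on each side were as follows. On chrUn:426940-428670 the DR model arrays had 2.14, 2.68 and 2.13, against 1.66, 1.45 and 2.00 in controls, differing by 0.62 ± 0.18 (SE, adjusted p = 0.19 in limma). On chr8:126370797-126372423 (11 probes) the DR model arrays had 0.78, 0.84 and 0.70, against 1.12, 1.19 and 1.39 in controls, differing by -0.46 ± 0.09 (SE, adjusted p = 0.103 in limma).

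Calcium dobesilate with insulin was examined by setting CaD against the DR model. No member passed in limma, again as in all regions (0%), but 257 members (40.0%) had an unadjusted p under 0.05, against 15% of all regions. The difference lay below 0 in 601 members (93.5%), with a median of -0.16 over the members and 0.01 over all regions. These shares depended on scaling. With quantile normalization the median was -0.03, 406 members lay below 0 and 13.4% had an unadjusted p under 0.05, against 10.9% of all regions, and after division by the slope the median was -0.04, with 430 below 0 and 16.3%, against 11.7%. CaD arrays lay wholly below DR model arrays in 196 members and wholly above in 4, together 31.1%, against 16.4% of all regions. The longer-probe regions of high ratio behaved alike, with a median of -0.15 and 39.1% at an unadjusted p under 0.05. The largest such separation was on chr14:103656593-103657888 (9 probes), with 0.78, 0.64 and 0.84 in CaD rats, against 1.85, 1.80 and 1.32 in DR model rats, differing by -0.91 ± 0.16 (SE, adjusted p = 0.105 in limma). When scan was added as a fixed term, the members' median difference was -0.02. An unadjusted p under 0.05 in limma then held for 8 members (1.24%, against 1.67% of all regions). Both values rest on DR model replicate 3, the only DR model array in a scan with treated arrays. Without DR model replicate 3 the median was -0.22 and 191 members passed in limma, all lower in CaD. An unadjusted p under 0.05 in limma then held for 61.6% of members, against 26.6% of all regions. Without that array, no DR model array shared a scan with a CaD array. Members with a CaD mean below 0.6 were not counted apart, and for these the difference is a description only.

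The comparison of the other formula with the DR model gave a like picture, with the same DR model arrays. No member passed in limma (0% of all regions), and 263 members (40.9%) had an unadjusted p under 0.05, against 15.1% of all regions. The difference lay below 0 in 606 members, with a median of -0.16, against -0.02 over all regions. The median was -0.07 after division by the slope, with 509 members below 0, -0.01 with quantile normalization, with 345 below 0, and -0.02 in the authors' deposited value table, with 369 below 0. Other formula arrays lay wholly below DR model arrays in 208 members and wholly above in 3, together 32.8%, against 18.6% of all regions. On chr7:121620511-121621040 (4 probes) the other formula arrays had 0.77, 0.67 and 0.70, against 1.42, 1.13 and 1.03 in the DR model, differing by -0.48 ± 0.08 (SE, adjusted p = 0.103 in limma). CaD arrays had 0.75, 0.74 and 0.76 there, and LTF arrays, at 0.93, 1.04 and 0.90, overlapped with the DR model. When scan was added as a fixed term, the median difference was -0.01 and 7 members had an unadjusted p under 0.05. No other formula array shared a scan with a DR model array, so this estimate runs through the CaD arrays to DR model replicate 3 alone, which is assumed to vary like the others. Without DR model replicate 3, 172 members passed in limma, all lower. An unadjusted p under 0.05 in limma then held for 62.2% of members, against 24.2% of all regions. Members with an other formula mean below 0.6 were not counted apart, and for these the difference is a description only.

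The comparison of LTF with the DR model called 16 members in limma, all lower in LTF (2.49%), against 0.9% of all regions called and 0.661% called lower. An unadjusted p under 0.05 was found in 227 members (35.3%, against 19.4% of all regions), and the median difference was -0.13, against -0.02 over all regions. These values depended on scaling. After division by the slope the median was -0.05, with 432 members below 0. An unadjusted p under 0.05 then held for 22.4%, against 19.8% of all regions. With quantile normalization the median was -0.01, with 357 below 0 and 17.9%, against 17.6%. In the authors' deposited value table it was -0.01, with 365 below 0 and 23.2%, against 17.4%. With normexp it was -0.09, with 563 below 0 and 41.1%, against 22%. LTF arrays lay wholly below DR model arrays in 164 members and wholly above in 5, together 26.3%, against 20.3% of all regions. The 16 called members fell by 0.30 to 0.81 on the log2 scale, lay on 11 chromosomes, had groups that did not overlap, and 7 of them held 3 to 5 probes. In the longer-probe regions of high ratio 11 of 609 (1.81%) were called. All LTF arrays shared scan 4 and no DR model array was in it, so LTF and scan cannot be told apart. No member passed with scan as a random block, nor without DR model replicate 1 or 2 or without any 1 LTF array. Without DR model replicate 3, 150 passed, and an unadjusted p under 0.05 in limma held for 54.1%, against 26.6% of all regions. With the random block the median difference was -0.13, with 542 members below 0. As scan 4 held LTF arrays only, the block cannot take a scan effect out of this value. With quantile normalization 8 members passed, 6 of them lower, and 16 passed in the authors' deposited value table, 13 of them lower. Without CaD replicate 1, 2 or 3 the count was 3, 1 and 6, without other formula replicate 2 or 3 it was 1 and 6, and without control replicate 2 it was 9.

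The smallest p of the LTF comparison was on chr11:32282769-32283498 (730 bp, 5 probes). Its log2 ratio was 0.86, 0.89 and 0.73 with LTF, against 1.52, 1.63 and 1.19 in the DR model, differing by -0.62 ± 0.10 (SE, adjusted p = 0.0245 in limma). CaD rats had 1.03, 0.90 and 0.91, other formula rats 1.07, 0.89 and 0.88, and control rats 1.40, 1.30 and 1.48. All 9 treated arrays lay below all 6 untreated arrays. On chr1:79576039-79576560 (4 probes) LTF arrays had 0.72, 0.76 and 0.47, against 1.31, 1.43 and 0.96 in the DR model, differing by -0.58 ± 0.11 (SE, adjusted p = 0.0336 in limma). On chr1:262555220-262556788 (10 probes) LTF arrays had 0.77, 0.86 and 0.64, against 1.42, 1.69 and 1.07 in the DR model, differing by -0.64 ± 0.12 (SE, adjusted p = 0.0336 in limma). In both regions the groups did not overlap, and DR model replicate 3 was the lowest DR model array. On chr3:164406332-164407877 (9 probes) the difference was -0.47 ± 0.09 (SE, adjusted p = 0.0342 in limma), with LTF at 0.41, 0.39 and 0.47, against 0.94, 1.06 and 0.68 in the DR model. All 9 treated arrays lay below 0.6 there, so the untreated groups carried this region past the rule and its difference is a description only. The LTF mean lay below 0.6 in 134 of the 643 members, among them 6 of the 16 called ones, and for these the same holds.

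**Figure D4:**
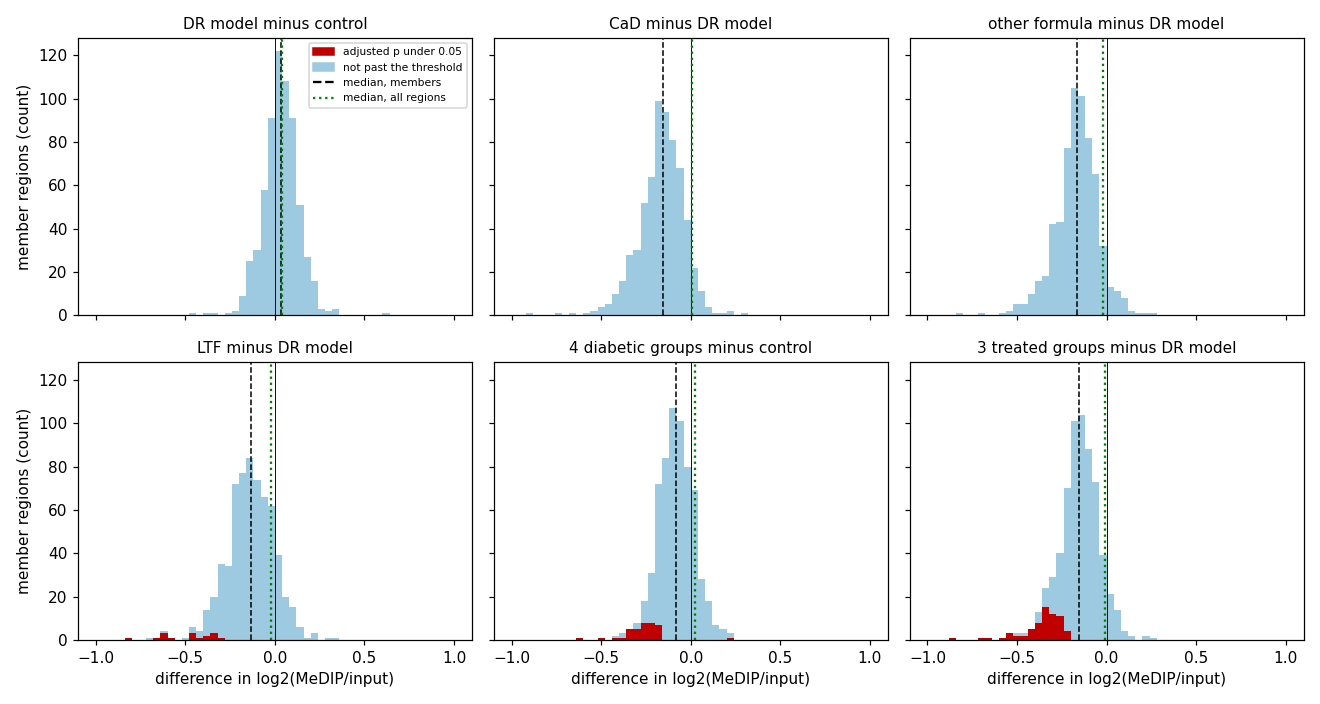
Numbers of members (y axis) by their difference in log2(MeDIP/input) (x axis) in 6 comparisons, with members past an adjusted p of 0.05 in limma in red. The members' median (dashed) lies at -0.16, -0.16 and -0.13 for CaD, the other formula and LTF against the DR model, while the median of all regions (dotted) lies between -0.02 and 0.01.

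Taken as 1 set of 9 arrays, the 3 treated groups were lower than the DR model in 66 members and higher in none past an adjusted p of 0.05 in limma. The 66 made up 10.3% of the members, against 2% of all regions called and 1.57% called lower, and 9.20% of the longer-probe regions of high ratio (56) were called. An unadjusted p under 0.05 was found in 335 members (52.1%, against 21.7% of all regions). The differences of the 66 ran from -0.84 to -0.21 with a median of -0.34, and 28 of the 66 held 3 to 5 probes. The mean of the treated arrays lay below 0.6 in 148 members, among them 21 of the 66, which were members through the untreated groups, so that by the rule their treated mean lay below their untreated mean. The other 45 averaged 0.6 or more in treated rats. Treated arrays lay wholly below the DR model arrays in 75 members and wholly above in 1, together 11.8%, against 5.28% of all regions. The count of called members was 0 without DR model replicate 1 or 2 and 287 without DR model replicate 3. Without replicate 3 an unadjusted p under 0.05 in limma held for 66.6% of members, against 30.7% of all regions. Leaving out any 1 treated array lowered the count, to 34, 10 and 11 without CaD replicate 1, 2 or 3, to 34, 8 and 4 without other formula replicate 1, 2 or 3, and to 17, 44 and 23 without LTF replicate 1, 2 or 3. With all arrays it was 20, all lower and all among the 66, after division by the slope, 41 in the authors' deposited value table with 33 lower, and 0 with scan as a random block. With that block the median difference over the members was -0.13, with 585 below 0. Treated and DR model arrays shared only scan 6, so the block cannot separate scan from treatment here. The size of the shift over all 643 members depended on scaling too. Its median was -0.15 as measured, -0.06 after division by the slope, -0.06 with normexp background correction, -0.02 with quantile normalization and -0.02 in the authors' deposited value table.

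Scan 6 is the only scan that held treated and DR model arrays together. There, the mean of CaD replicates 1 and 2 minus DR model replicate 3 had a median of -0.02 over the 643 members and 0.00 over all regions, and both CaD arrays lay below the DR model array in 260 members (40.4%, against 32.2% of all regions). In the 66 called members the median was -0.14 and the difference lay below 0 in all 66, with both CaD arrays lower in 60. These 3 arrays also entered the test that chose the 66, so the direction is not independent. A limma fit within scan 6 had to assume that the single DR model array varied like the other arrays, so its counts are not read here.

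The largest difference of the 3 treated groups was on chr14:103656593-103657888 (1296 bp, 9 probes, each with a mean of at least 0.63). Over the 9 treated arrays the lowest value was 0.59, the median 0.81 and the highest 1.20, against 1.85, 1.80 and 1.32 in the DR model, differing by -0.84 ± 0.13 (SE, adjusted p = 0.0197 in limma). Controls stood at 1.47, 1.43 and 1.99, and all treated arrays were below all untreated ones. Within scan 6 the values were 0.78 and 0.64 in CaD rats and 1.32 in the DR model rat. That difference of -0.61 was the largest fall of any region in scan 6. After division by the slope the difference was -0.70, with an adjusted p of 0.00299 in limma, and with scan as a random block it was -0.80, with an adjusted p of 0.0900 in limma. Loss of the call under the block was shared by chr11:32282769-32283498 (adjusted p = 0.0789 in limma) and chr1:79576039-79576560 (adjusted p = 0.0900 in limma). On chr13:32177444-32177894 (3 probes) treated arrays ranged from 0.44 to 0.80 with a median of 0.62, against 1.39, 1.50 and 1.01 in the DR model, differing by -0.68 ± 0.11 (SE, adjusted p = 0.0223 in limma).

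**Figure D5:**
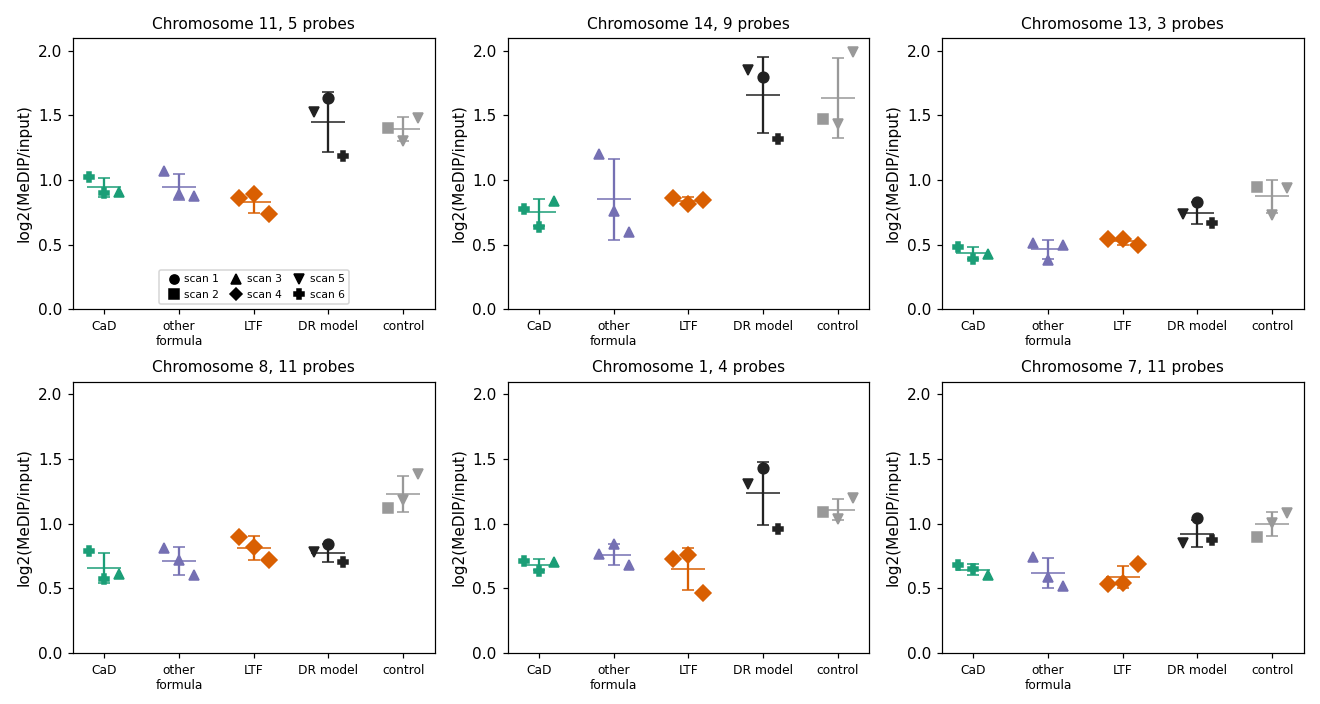
Log2(MeDIP/input) per array (y axis) in the 6 members with the smallest p for any difference among the 5 groups, with the mean and SD of each group (n = 3) and shapes for the scan. The treated arrays lie below all 6 untreated arrays in the regions of chromosomes 1, 7, 11, 13 and 14, and in the chromosome 8 region all diabetic arrays lie below the controls.

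A few members ran the other way. On chr9:36179051-36180671 (6 probes) the ratio was 0.61, 0.70 and 0.63 with CaD, 0.57, 0.55 and 0.54 with the other formula and 0.61, 0.58 and 0.65 with LTF, against 0.43, 0.49 and 0.48 in the DR model, and controls stood at 0.69, 0.66 and 0.82. All 9 treated arrays lay above all DR model arrays. The difference of the 3 treated groups was 0.14 ± 0.05 (SE) and did not pass, with an adjusted p of 0.127 in limma. It was also among the 4 members with the DR model below control with the smallest p, differing by -0.26 ± 0.06 (SE, adjusted p = 0.112 in limma). All DR model arrays lay below 0.6 there, so groups with higher levels carried it past the rule. Both differences are descriptions only. On chrX:134271647-134272282 (4 probes) LTF arrays had 0.70, 0.93 and 0.69, against 0.63, 0.49 and 0.50 in the DR model, differing by 0.23 ± 0.07 (SE, adjusted p = 0.112 in limma). The mean there was 0.54 in the DR model, 0.57 in controls and 0.78 with LTF. LTF thus helped to carry it past the rule, and its difference is a description only. On chr10:13681713-13682177 (3 probes) the other formula arrays had 0.85, 0.97 and 0.98, against 0.83, 0.55 and 0.69 in the DR model, differing by 0.24 ± 0.08 (SE, adjusted p = 0.212 in limma). Groups did not overlap in these 3 regions, and neither of the last 2 passed.

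The mean of the 4 diabetic groups, with or without treatment, set against control called 38 members in limma, 37 lower and 1 higher. This was 5.91% of the members, against 8.71% of all regions. The lower calls made up 5.75% of the members against 2.36% of all regions, and the single higher call 0.156% against 6.35%. The direction of this split depended on scaling. It was 3 lower and 10 higher after division by the slope, 7 lower and 19 higher with normexp background correction, 10 lower and 6 higher with quantile normalization, 203 lower and 0 higher with loess within arrays, and 64 lower and 10 higher in the authors' deposited value table. An unadjusted p under 0.05 was found in 173 members (26.9%, against 27.9% of all regions), and the median difference was -0.08, against 0.02 over all regions and 0.03 over the members after division by the slope. All diabetic arrays lay below all control arrays in 5 members and above them in 2, together 1.09%, against 3.51% of all regions. Of the 38 called members, 4 had arrays that did not overlap in this way. The mean of the 4 diabetic groups holds the 3 treated groups. The DR model alone against control had 0 called members and a median difference of 0.03, with 424 members above 0. The mean of the diabetic arrays lay below 0.6 in 5 of the 37 lower members. The count fell to 3 without control replicate 3, whose slope of 1.24 was the highest, and it was 101 without DR model replicate 2. It was 25 without control replicate 2, 24 and 21 without CaD replicate 1 or 2, 21 and 22 without other formula replicate 2 or 3, and 23 without LTF replicate 1. Without control replicate 3 an unadjusted p under 0.05 in limma held for 14.5% of members, against 20.6% of all regions. Without DR model replicate 2 these shares were 35% and 32.1%.

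The smallest p of the diabetic comparison was on chr8:126370797-126372423, where the 12 diabetic arrays had a lowest value of 0.57, a median of 0.75 and a highest of 0.90, against 1.12, 1.19 and 1.39 in controls. The difference was -0.49 ± 0.07 (SE, adjusted p = 0.00296 in limma), -0.33 after division by the slope and -0.48 with scan as a random block (adjusted p = 0.0168 in limma). Within scan 5, DR model replicate 1 stood at 0.78 and control replicates 2 and 3 at 1.19 and 1.39. On chr13:80562530-80563364 (6 probes) the diabetic arrays ranged from 0.64 to 0.87 with a median of 0.75, against 0.95, 1.01 and 1.06 in controls, differing by -0.24 ± 0.06 (SE, adjusted p = 0.0231 in limma). On chr12:12358038-12359405 (8 probes) they ranged from 0.53 to 0.72 with a median of 0.60, against 0.79, 0.86 and 0.88, differing by -0.23 ± 0.05 (SE, adjusted p = 0.0162 in limma). In these 3 regions no diabetic array reached the lowest control array, but in the authors' deposited value table the last difference was 0.01. Of 31 alternatives, the call was lost in 2 for the chromosome 8 region, where the difference came as near to 0 as -0.13. It was lost in 11 for the chromosome 13 region and, beside that value table, in 9 for the chromosome 12 region. The single member that was higher in diabetic rats was chr9:74038721-74039561 (6 probes), with a range of 0.51 to 0.96 and a median of 0.65 in diabetic rats, against 0.45, 0.51 and 0.37 in controls. Its difference was 0.20 ± 0.06 (SE, adjusted p = 0.0489 in limma). All control arrays lay below 0.6, so the diabetic groups carried this region past the rule and its difference is a description only. The call was lost in 19 of 31 alternatives, where the difference was as low as 0.01 and the adjusted p as high as 0.890 in limma.

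An F test of any difference among the 5 groups called 48 members (7.47%), against 3.46% of all regions, and 245 (38.1%) had an unadjusted p under 0.05, against 24.8%. The group with the highest mean among the 48 was the other formula in 1, LTF in 1, the DR model in 31 and control in 15, and CaD in none. Those of the 48 that passed the rule through the groups where they were high were not counted apart. This order of the groups is thus a description only. Beside the regions already described, chr13:95639044-95639469 (3 probes) and chr7:139937710-139939411 (11 probes) had the smallest p. On chr13:95639044-95639469 the ratio was 0.48, 0.39 and 0.43 with CaD, 0.51, 0.38 and 0.50 with the other formula, 0.55, 0.55 and 0.49 with LTF, 0.74, 0.83 and 0.67 in the DR model and 0.95, 0.73 and 0.94 in controls (adjusted p = 0.0159 in limma). On chr7:139937710-139939411 it was 0.68, 0.65 and 0.60, then 0.74, 0.59 and 0.52, then 0.53, 0.54 and 0.69 in the same 3 treated groups, against 0.85, 1.04 and 0.87 in the DR model and 0.90, 1.01 and 1.08 in controls (adjusted p = 0.0206 in limma). In both regions the treated arrays lay below every DR model and control array. In the first, all 9 treated arrays also lay below 0.6, so it was a member through the untreated groups and its difference is a description only. With scan as a random block no member passed this test in limma. The count was 181 without DR model replicate 3 and 17 without DR model replicate 1. It was 15 and 5 without control replicate 2 or 3, and from 6 to 23 without any 1 treated array. Without DR model replicate 3 an unadjusted p under 0.05 in limma held for 55.8% of members, against 31.4% of all regions.

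Within groups the members spread more than the other short-probe regions and about as much as all regions. The within-group SD, pooled over the 5 groups, had a median of 0.11 in members, of 0.09 in the other short-probe regions and of 0.11 in all regions. Across the 643 members, arrays of the same group correlated at 0.647 to 0.855 (median 0.804, 15 pairs) and arrays of different groups at 0.512 to 0.888 (median 0.734, 90 pairs). Over all regions, whose levels span a wider range, arrays of the same group correlated at 0.94 to 0.978 (median 0.967). These correlations are across regions, which are not replicates, and arrays of a group often shared a scan. The least variable member was chr1:42688861-42690542 (10 probes), with a pooled SD of 0.04 and values from 0.62 to 0.84 over all arrays. The most variable was chr2:27671732-27672265 (4 probes), with a pooled SD of 0.33. It had 1.01, 0.64 and 0.60 with CaD, 0.76, 1.24 and 0.64 with the other formula, 0.71, 1.02 and 0.66 with LTF, 1.65, 0.89 and 0.80 in the DR model and 1.18, 1.01 and 1.70 in controls. Its groups overlapped in most pairs, and no difference passed in limma.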

How the data were processed

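MeDIP DNA (Cy5) and input DNA (Cy3) from the blood of 15 rats, biological replicates per the labels, were hybridised to 2-colour Agilent arrays. The deposited scanner output, from Feature Extraction 11.0.1.1 per the file headers, holds each spot's intensity in each channel after background subtraction and linear dye normalisation, with positions on rn4. They also hold the log10 ratio of Cy5 over Cy3 that the authors' scanner software computed. A value table that the authors deposited was read as log2 of MeDIP over input. No source used here states the base of its logarithm, how it was centred or which way it runs, so this is an assumption, and these values served as an alternative. The submitters' processing notes name limma without saying what it did.

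From these, log2 of Cy5 over Cy3 processed signal was taken for 172669 probes after leaving out 6856 control spots and the outlier spots of each array, centred on each array's median, and averaged over the probes of a region. Of 17668 runs of probes, 884 were too short and 2 had an array with no value. All 16782 regions entered 1 limma fit (lmFit, then eBayes) that gave every group its own mean and let all 15 arrays share a spread, and p-values were adjusted over all regions of a comparison (Benjamini-Hochberg, threshold 0.05). Results for the members were read from that fit. The members, lists and rules were chosen with earlier results of these data known. Regions were named by rule: per comparison the 4 higher and 4 lower members with the smallest p among those whose arrays did not overlap, whether or not they passed, the 6 with the smallest p for any difference, the 8 highest, the 4 with the most probes, those nearest the thresholds, and the 3 most and 3 least variable. Windows were chosen by their counts.

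Alternatives were normexp, loess, quantile normalization, division by the slope, the authors' table, other spot and probe filters, scan and scan day as blocks, values within a scan or day, array weights and leaving out each array. Normexp used the spot and background medians, since spot means were not used here. Replicate numbers did not pair the samples: same-numbered deviations correlated at -0.424 to -0.286 between the DR model and control, at -0.251 to 0.0935 between CaD and the DR model, at -0.114 to 0.331 between the other formula and the DR model, and at -0.111 to -0.0639 between LTF and the DR model. Genes and base sequences are not given, because the files used here give positions on rn4 and the tables at hand use another assembly. Software was limma 3.58.1, data.table (1.17.8) and jsonlite 2.0.0 in R 4.3.3.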

Additional observations from a re-analysis of the deposited data

How the results depend on the processing

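Scan, array slope and DR model replicate 3 limit these results, and so do other settings below; each scan held few groups. The counts below are members called in limma, where the settings changed them by over 1.5 times. The cause was not tested. Shares of all regions called are not given beside them, so these counts alone do not set the members apart from all regions. With scan as a random block LTF minus DR model gave 0, the 3 treated groups 0, the 4 diabetic groups 3 and any difference 0; with scan day as one, LTF gave 0. Within scan 5 the diabetic count was 0 and within scan 6 the treated count was 0; within scan day 1, which held 1 DR model, 1 control and 1 CaD array, each assumed to vary like the others, CaD gave 2, the other formula 108, the treated groups 120 and the diabetic groups 0; within scan day 3 the treated groups gave 0 and the diabetic groups 13. After division by the slope CaD gave 1, LTF 25, treated 20, diabetic 13 and any difference 18. The same division without DR model replicate 3, an alternative added after seeing the data, gave 4 (CaD), 9 (other formula), 29 for treated, 9 for diabetic and 19 for any difference. Quantile normalization gave 8 for LTF, 4 for treated, 16 for diabetic and 16 for any difference. Normexp gave CaD 2, the other formula 2 and LTF 42. Loess gave 1 for the DR model against control, 36 for treated, 203 for diabetic and 141 for any difference. In its diabetic comparison an unadjusted p under 0.05 in limma held for 53.2% of members, against 36.2% of all regions. The authors' deposited value table gave CaD 2, the other formula 9, 41 for treated and 74 for diabetic. With outlier spots kept LTF gave 55, treated 129, diabetic 67 and any difference 82. Probes well above background on all arrays gave 30 for the other formula, 51 for LTF, 159 for treated and 83 for any difference, with 622 members left. The median over probes gave 27 for treated, 14 for diabetic and 17 for any difference. Only the arrays of the groups compared gave 0 for LTF. Array weights gave 1 for LTF, 0 for treated, 20 for diabetic and 110 for any difference.

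The numbers did not pair the samples, and with a replicate block LTF gave 3, treated 26, diabetic 23 and any difference 7. Leaving out 1 array gave 0 to 1 called members for the DR model against control, 0 to 191 (CaD), 0 to 172 (other formula), 0 to 150 (LTF), 3 to 101 for diabetic, 0 to 287 for treated and 5 to 181 for any difference, and 608 to 660 members. The number of members was 1035 at a ratio of 0.5, 230 at 0.8, 419 with probe length under 46, 169 with normexp and 1323 with probes above background only. Of the 643 members, 168 were among the 169, and 479 were among the 1323 with unchanged bounds. Loess gave 512 members, which held 349 of the 643, and the authors' table gave 436, which held 429. Of the named differences, 4 turned round: the other formula at chr9:36179051-36180671 was -0.00686 with loess and -0.0108 with the median over probes, LTF at chrX:134271647-134272282 was -0.0346 with probes above background only, and the diabetic groups at chr12:12358038-12359405 were 0.0145 in the authors' table. Over the members the median difference stayed below 0 in each comparison of treated rats with the DR model under each single array left out.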
